A study of Mus musculus with 64 samples.

Results

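Brown adipose tissue (BAT) of wild-type (WT) mice was compared between ZT6, the middle of the light phase, and ZT18, the middle of the dark phase, over all measured genes. Zeitgeber time (ZT) counts hours from the start of light. The comparison rests on the 8 samples that the labels give as BAT, wildtype, at ZT6 (4 samples) and at ZT18 (4 samples), of 64 samples in the series. The other samples come from epididymal white adipose tissue (eWAT), from fat-specific Nampt knockout (FANKO) mice and from ZT10 and ZT22. Depot, genotype and time point make 16 groups, each of 4 samples. All mice were males of the NamptTM1Jtree line crossed with Adiponectin-Cre mice, and per the study's methods were 2 to 4 months old, had free access to chow and were kept at room temperature. The WT mice are the littermates without Cre, so they carry the loxP-flanked Nampt gene in intact form. In FANKO mice the Adiponectin promoter limits Cre to adipocytes, and the other cells of the depot keep Nampt. The labels number the samples of a group from 1 to 4 and name no animals, so the p-values measure the spread between these samples, which may be technical.

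The circadian clock is a transcriptional feedback loop. The activators ARNTL (BMAL1) and CLOCK, or NPAS2 in place of CLOCK, bind E-boxes and switch on the Per and Cry genes, whose proteins then repress the activators. In a second loop the REV-ERB receptors (Nr1d1, Nr1d2) repress Arntl and the ROR receptors activate it, and the PAR bZIP factors (Dbp, Tef, Hlf) and their antagonist NFIL3 carry the rhythm to output genes. BAT burns lipid and glucose for heat, and in mice, which feed and move mainly at night, the light and dark phases also differ in feeding, body temperature and the level of corticosterone.

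Library depth lay between 9585278 and 30544847 read pairs assigned to genes in the 8 samples. The mitochondrial genome took 20 to 28% of the counts at ZT6 and 16.8 to 34.5% at ZT18. The brown adipocyte markers were abundant in all 8 samples, with a summed level of 9512 to 13380 CPM (counts scaled to the depth of the sample) for the 10 markers at ZT6 and 7915 to 11840 CPM at ZT18, and none of the 10 was called by edgeR or DESeq2 (1 had an unadjusted p below 0.05). ZT18 replicate 4 stood apart from the other 3 ZT18 samples. It had 2287 genes more than 1 log2 unit from their mean, against 683 to 1425 for any other sample of the 8. The 14 skeletal muscle markers summed to 629 CPM in that sample, to at most 358 CPM in the other ZT18 samples and to 87.3 to 367 CPM at ZT6. All 14 muscle markers had a positive log2 change (ZT18 over ZT6), with a median of 1.12, and of 0.38 without ZT18 replicate 4. None of the 14 was called by edgeR or had an unadjusted p below 0.05. The summed markers of macrophages, of lymphocytes, of endothelium, of fibroblasts, of erythroid cells and of Schwann cells overlapped between the time points. None of the markers tested was at 0. One marker each of macrophages (Cd14), endothelium (Emcn) and Schwann cells (Mbp) was called higher at ZT18, each with a call that was lost when 1 of several samples was left out. The part of such cells in the results was not tested. In whole tissue, more cells of a type and more RNA per cell cannot be told apart.

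At ZT18, 950 genes were higher than at ZT6 and 759 were lower, so that 1709 of the 20249 genes tested changed (edgeR's quasi-likelihood test, Benjamini-Hochberg FDR below 0.01). These are 8.44% of the genes tested, 4.69% higher at ZT18 and 3.75% higher at ZT6. The median fold was 1.67 among the genes higher at ZT18 and 1.55 among those higher at ZT6, and 309 and 201 genes, respectively, differed by more than 2-fold. The samples of the time points did not overlap for 2943 genes (14.5% of those tested). All 64 samples entered the fit, which thus pooled the spread within the 16 groups. A fit of the 8 samples alone called 552 genes. Without ZT18 replicate 4 the test called 1558 genes, of which 1293 were called with it as well. Scaling by library size alone, in place of trimmed means of M-values (TMM), shifted the median of all genes from 0.03 to -0.11 on the log2 scale and turned the balance of calls to 409 higher and 1110 lower at ZT18.

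**Figure D1:**
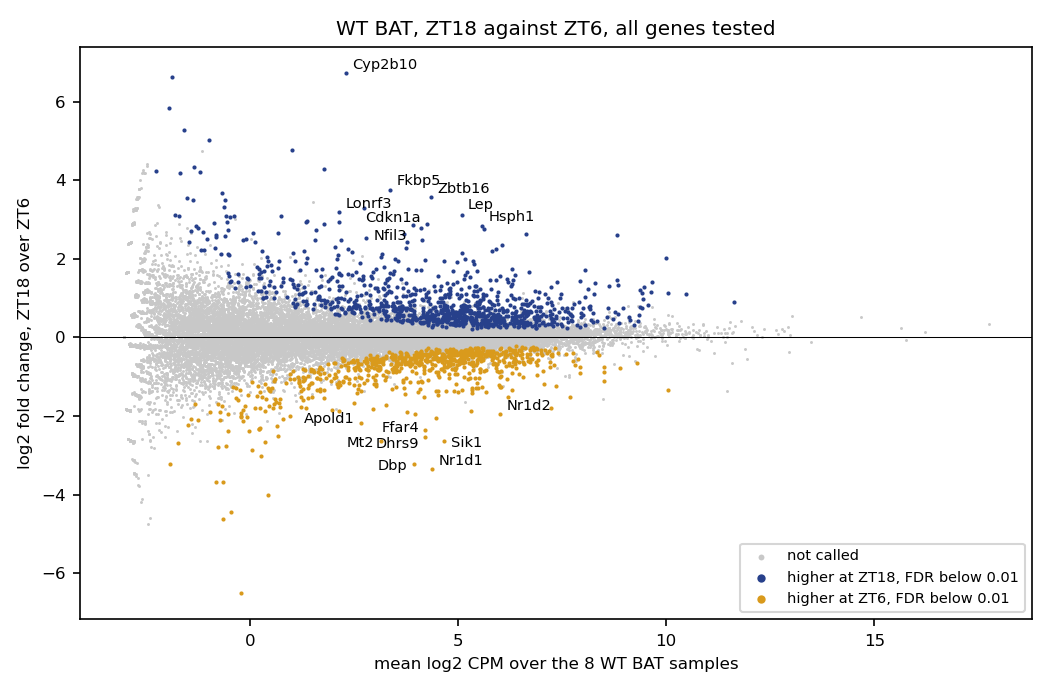
Each point is 1 of the 20249 genes tested, with its mean log2 CPM over the 8 WT BAT samples on the x axis and its log2 fold change (ZT18 over ZT6) on the y axis. Genes with an FDR below 0.01 are coloured, 950 above 0 and 759 below it, and the labelled genes are the 8 largest changes in each direction among genes that averaged log2 CPM 2 or more and whose groups did not overlap, from Cyp2b10 at 6.74 to Nr1d1 at -3.34.

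Among the clock genes, Arntl, Cry1, Cry2 and Nfil3 rose at ZT18 and Nr1d1, Nr1d2, Dbp and Ciart fell. All 4 clock activators had an unadjusted p below 0.05 in edgeR, and only Arntl passed the test (25% of the list, against 4.69% of all genes). Its samples read 4.75, 3.54, 3.20 and 10.2 CPM at ZT6 and 30.1, 36.8, 34.8 and 35.04 CPM at ZT18. The lowest ZT18 sample was nearly 3 times the highest ZT6 sample (log2 change 2.64 ± 0.26 (SE), adjusted p = 3.08e-11). Clock, whose protein pairs with ARNTL, had overlapping samples and a log2 change of 0.23 ± 0.09 (adjusted p = 0.0986). Npas2 had a log2 change of 1.43 ± 0.48 at a level below 3 CPM in all 8 samples (adjusted p = 0.0362), and Arntl2 one of 0.41 ± 0.13 (adjusted p = 0.0282).

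Of the 8 genes of the PER and CRY repressors and their relatives, 2 rose (25%, against 4.69% of all genes) and 1 fell (12.5%, against 3.75%). Cry1, which encodes a repressor of ARNTL and CLOCK, had the smallest p of all genes higher at ZT18. It measured 8.41, 6.66, 5.23 and 5.58 CPM at ZT6 and 40.01, 50.5, 40.3 and 51.7 CPM at ZT18. All 4 dark-phase samples were near the same level, far above the light-phase samples (log2 change 2.80 ± 0.15 (SE), adjusted p = 2.00e-20). Cry2 read 37.99, 33.3, 35.4 and 24.1 CPM at ZT6 and 62.3, 58.96, 71.5 and 38.5 CPM at ZT18, a smaller difference in which the groups just failed to touch (log2 change 0.82 ± 0.14 (SE), adjusted p = 1.66e-05). Ciart, another repressor of the ARNTL and CLOCK pair, read 10.8, 10.8, 8.90 and 8.20 CPM at ZT6 and 2.96, 2.90, 3.20 and 5.50 CPM at ZT18 and was lower in every ZT18 sample (log2 change -1.43 ± 0.26 (SE), adjusted p = 3.65e-05). The 3 Per genes did not pass the test between these 2 time points. Per1 read 23.4, 25.1, 13.6 and 13.6 CPM at ZT6 and 9.16, 8.45, 8.84 and 52.5 CPM at ZT18, so that ZT18 replicate 4 was the highest of the 8 samples while the other 3 ZT18 samples were the lowest. Its log2 change was 0.04 ± 0.38 with that sample and -1.09 without it, neither past the threshold (adjusted p = 0.99 and 0.0202). Per2 had a log2 change of 0.91 ± 0.29 (adjusted p = 0.0247) and Per3 one of -0.59 ± 0.18 (adjusted p = 0.0164). Per1, Per2 and Per3 had their highest mean at ZT10, at 40.5 ± 6.54, 52.8 ± 11.1 and 176 ± 13.8 CPM (SD, n = 4). Bhlhe40 and Bhlhe41, which encode E-box repressors, had overlapping samples.

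Among the nuclear receptors of the second loop, Nr1d1 and Nr1d2 fell at ZT18. Nr1d1, the gene of REV-ERBα, read 64.2, 71.7, 71.6 and 63.7 CPM at ZT6 and 3.37, 6.80, 7.28 and 9.44 CPM at ZT18, which was the largest decrease among the well-expressed genes (log2 change -3.34 ± 0.27 (SE), adjusted p = 3.40e-14). Nr1d2 fell from 128 ± 13.4 to 33.1 ± 8.11 CPM (SD, n = 4 per group, log2 change -1.96 ± 0.24 (SE), adjusted p = 9.33e-09). Rora and Rorb did not pass the test. Among the PAR bZIP genes, Dbp, an activator at D-boxes, read 41.7, 53.4, 60.3 and 36.02 CPM at ZT6 and 8.26, 4.05, 4.15 and 3.93 CPM at ZT18, and every ZT18 sample was far below every ZT6 sample (log2 change -3.23 ± 0.25 (SE), adjusted p = 8.15e-15). Nfil3, which encodes a repressor at the same D-boxes, moved in the other direction, with 6.66, 6.24, 4.14 and 6.19 CPM at ZT6 and 30.4, 31.3, 31.8 and 76.2 CPM at ZT18 (log2 change 2.86 ± 0.28 (SE), adjusted p = 4.17e-11). In ZT18 replicate 4 it was more than 2 times as high as in the other ZT18 samples. Without that sample the log2 change of Nfil3 was 2.42. Tef and Hlf had overlapping samples at the 2 time points. On the opposite strand Thra lies across Nr1d1 and Sphk2 across Dbp, and Arntl, Cry2 and Ciart overlap less known genes there. The strand setting of the counting is not given in the sources used here, so reads of such pairs cannot be told apart.

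**Figure D2:**
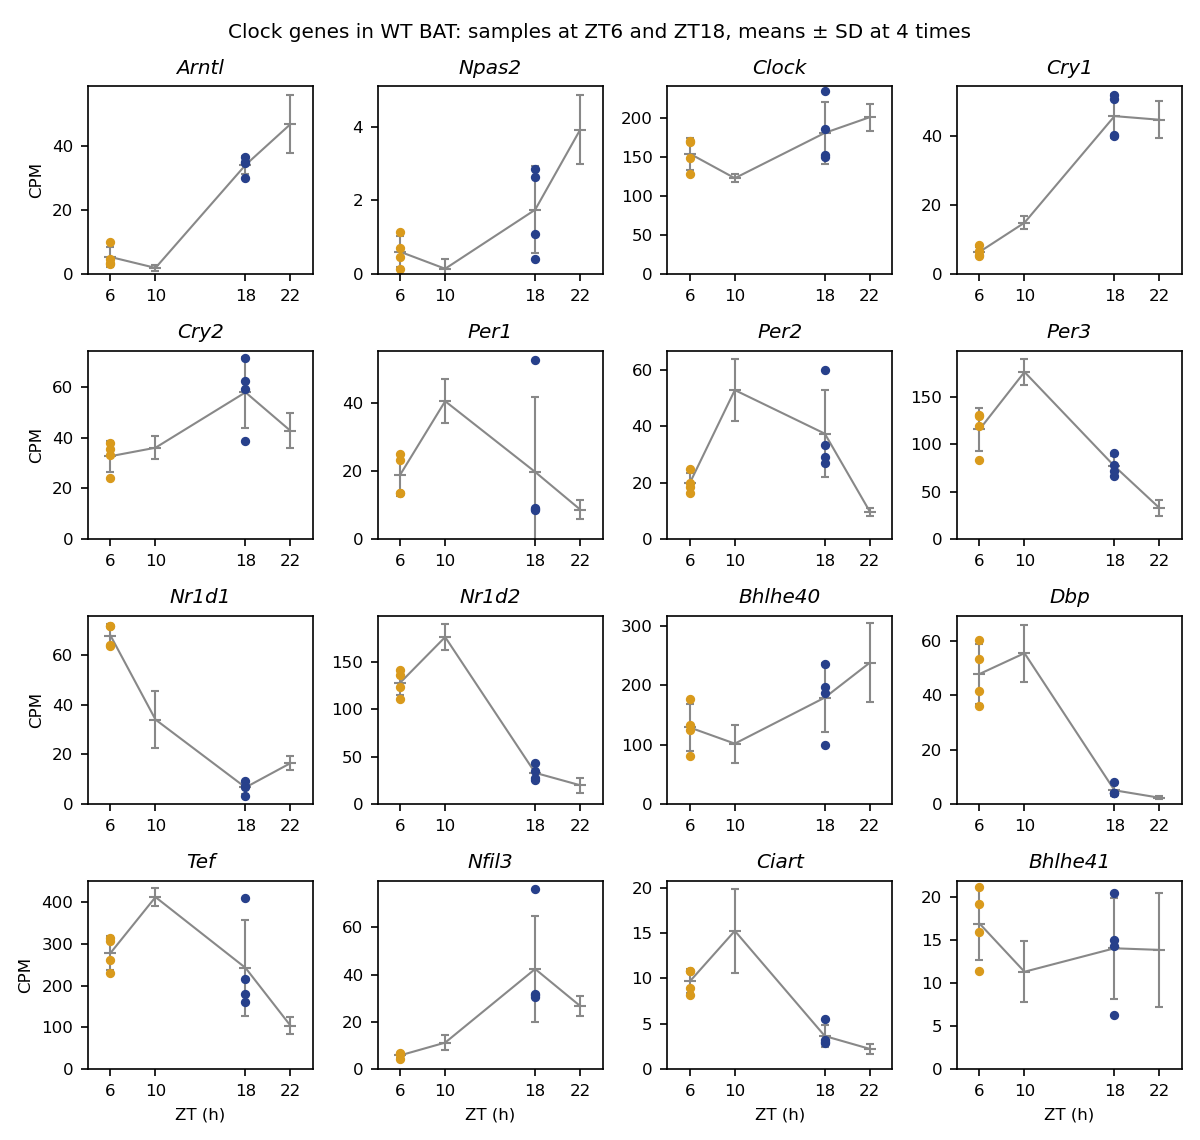
Each panel shows 1 clock gene in WT BAT, with CPM on the y axis from 0 and ZT in hours on the x axis. Points are the 4 samples at ZT6 and the 4 at ZT18, and the line joins the means ± SD of 4 samples at ZT6, ZT10, ZT18 and ZT22. Arntl, Cry1 and Nfil3 are high at ZT18, Nr1d1, Nr1d2, Dbp and Ciart are low there, and the Per genes are highest at ZT10.

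Promoters of 3 of these clock genes are shown because they hold the letters of the elements through which the clock loops act. They are the 250 bases before the transcription start in RefSeq (build GRCm38.p6), read 5′ to 3′ along the gene. Capitals mark the E-box CACGTG in Cry1 (chr10:85185055-85185304, minus strand) and Ciart (chr3:95882229-95882478, minus strand), and the ROR and REV-ERB element TAGGTCA, here on the opposite strand, in Nfil3 (chr13:52981040-52981289, minus strand).
Cry1: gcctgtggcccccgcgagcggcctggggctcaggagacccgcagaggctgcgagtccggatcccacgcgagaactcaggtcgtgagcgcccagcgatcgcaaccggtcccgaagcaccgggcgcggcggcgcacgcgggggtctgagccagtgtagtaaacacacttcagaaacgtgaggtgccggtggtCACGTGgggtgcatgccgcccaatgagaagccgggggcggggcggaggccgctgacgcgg
Ciart: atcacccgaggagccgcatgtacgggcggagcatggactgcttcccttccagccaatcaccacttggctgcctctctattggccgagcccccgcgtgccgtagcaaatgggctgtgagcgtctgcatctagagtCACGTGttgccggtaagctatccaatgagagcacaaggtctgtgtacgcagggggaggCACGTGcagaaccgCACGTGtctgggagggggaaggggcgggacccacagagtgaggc
Nfil3: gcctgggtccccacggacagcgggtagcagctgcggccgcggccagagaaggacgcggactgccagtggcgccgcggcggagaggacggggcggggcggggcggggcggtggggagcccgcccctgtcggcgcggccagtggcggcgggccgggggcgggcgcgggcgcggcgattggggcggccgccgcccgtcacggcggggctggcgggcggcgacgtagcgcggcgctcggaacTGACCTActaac
Ciart, which fell at ZT18, holds 3 E-boxes, which start 116, 58 and 44 bases before the start site. Cry1, which rose, holds 1, which starts 60 bases before it. In Nfil3 the element starts 12 bases before the start site. None of these matches overlaps a match of the other motifs searched. Each motif was searched on both strands from 250 bases before to 50 after the start. In that window Per1, Bhlhe41 and Tef, none of them called, also hold the E-box, and Arntl holds the ROR and REV-ERB element. Dbp and the 4 REV-ERB and ROR receptor genes in the promoter table hold neither. CACGTG was found in 8.09% of the 27025 genes in the promoter table and in 10.9% of the tested genes with a promoter there. It was found in 17.4% of the 579 such genes called higher at ZT6 and in 11% of the 710 called higher at ZT18. TAGGTCA was found in 2.38% of the tested genes, in 2.94% of those higher at ZT6 and in 2.39% of those higher at ZT18. The D-box TTATGNAA was found in 2.80%, 1.90% and 3.24%, and the cAMP response element TGACGTCA in 3.16%, 2.59% and 5.35%. A match describes the letters in this window and not a bound site.

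Many chaperones of the cytosol rose at ZT18. Of the 26 genes of the list of cytosolic and mitochondrial chaperones, 18 rose and none fell, with a median log2 change of 0.81 against 0.03 over all genes tested. The 18 are 69.2% of the list, where 4.69% of all genes were called in this direction. Hspa8, the constitutive HSP70 of the cytosol, read 201, 213, 146 and 174 CPM at ZT6 and 1102, 1094, 1109.9 and 1176 CPM at ZT18. Its ZT18 samples lay close together, 6.11-fold above the ZT6 samples (log2 change 2.61 ± 0.17 (SE), adjusted p = 7.85e-18). Hsph1, a co-chaperone that exchanges nucleotide on HSP70, read 17.2, 18.1, 18.3 and 17.9 CPM at ZT6 and 109.6, 112, 159.9 and 134 CPM at ZT18 and was the largest increase of the list apart from Hspa1a and Hspa1b (log2 change 2.85 ± 0.21 (SE), adjusted p = 1.44e-15). Stip1, which links HSP70 to HSP90, rose from 43.4 ± 4.76 to 122 ± 8.81 CPM (SD, n = 4 per group) and Dnaja1, an HSP40 co-chaperone, from 45.3 ± 2.97 to 120.1 ± 13.8 CPM. Their log2 changes were 1.49 ± 0.10 (adjusted p = 1.89e-16) and 1.41 ± 0.10 (adjusted p = 1.01e-15). The small heat shock protein Hspb1 (log2 change 2.00 ± 0.22) and both cytosolic HSP90 genes, Hsp90aa1 (1.10 ± 0.14) and Hsp90ab1 (0.83 ± 0.13), rose as well. Hspa1a and Hspa1b, the inducible HSP70 genes, were called higher from a mean below 1 CPM at ZT6. They are near-identical copies between which short reads cannot be divided with certainty. The 8 members that did not pass included the mitochondrial Hspd1, Hspe1 and Hspa9 and the transcription factors Hsf1 (log2 change 0.37 ± 0.12, adjusted p = 0.0306) and Hsf2. The count was 18 with and without ZT18 replicate 4, and it lay between 14 and 18 in the other settings tried. Of 20 genes of endoplasmic reticulum chaperones and the unfolded protein response 1 rose (Canx, 0.25 ± 0.07) and 1 fell (Dnajb9, -0.66 ± 0.16), near the shares of all genes (4.69% and 3.75%), both with calls that were lost when 1 of several samples was left out, and Hspa5, the HSP70 of that compartment, had a log2 change of -0.29 ± 0.15 (adjusted p = 0.206).

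The letters GAANNTTC, the core of the heat shock element, were found in 7 of the 15 called chaperone genes with a promoter in the table (46.7%), in 7.24% of the tested genes and in 9.15% of all genes called higher at ZT18. The list was chosen with earlier results known, so the share is given without a test. Promoters of 2 of them are shown because the letters lie before the start site (Hspb1, chr5:135887669-135887918, plus strand, and Fkbp4, chr6:128438657-128438906, minus strand, RefSeq, GRCm38.p6), with the letters in capitals.
Hspb1: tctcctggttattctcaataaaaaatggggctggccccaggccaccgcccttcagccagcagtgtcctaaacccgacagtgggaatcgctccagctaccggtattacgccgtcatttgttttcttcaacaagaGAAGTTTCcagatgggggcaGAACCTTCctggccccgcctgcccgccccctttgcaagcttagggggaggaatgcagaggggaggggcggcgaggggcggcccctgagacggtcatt
Fkbp4: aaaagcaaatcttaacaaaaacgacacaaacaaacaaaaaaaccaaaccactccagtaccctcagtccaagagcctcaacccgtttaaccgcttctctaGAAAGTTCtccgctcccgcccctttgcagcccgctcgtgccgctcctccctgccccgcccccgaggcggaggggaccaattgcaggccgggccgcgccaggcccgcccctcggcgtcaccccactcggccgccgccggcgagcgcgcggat
Hspb1 holds the letters 2 times, starting 117 and 97 bases before the start site, and Fkbp4 1 time, starting 151 bases before it. Hspa1b holds them before its start too and is left out because of its near-identical copy. Bag3, Hspd1 and Hspe1 hold them too and were not called. Called or not, 10 of the 20 list members with a promoter in the table hold them. Within the list the letters thus did not separate called from uncalled members.

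**Figure D3:**
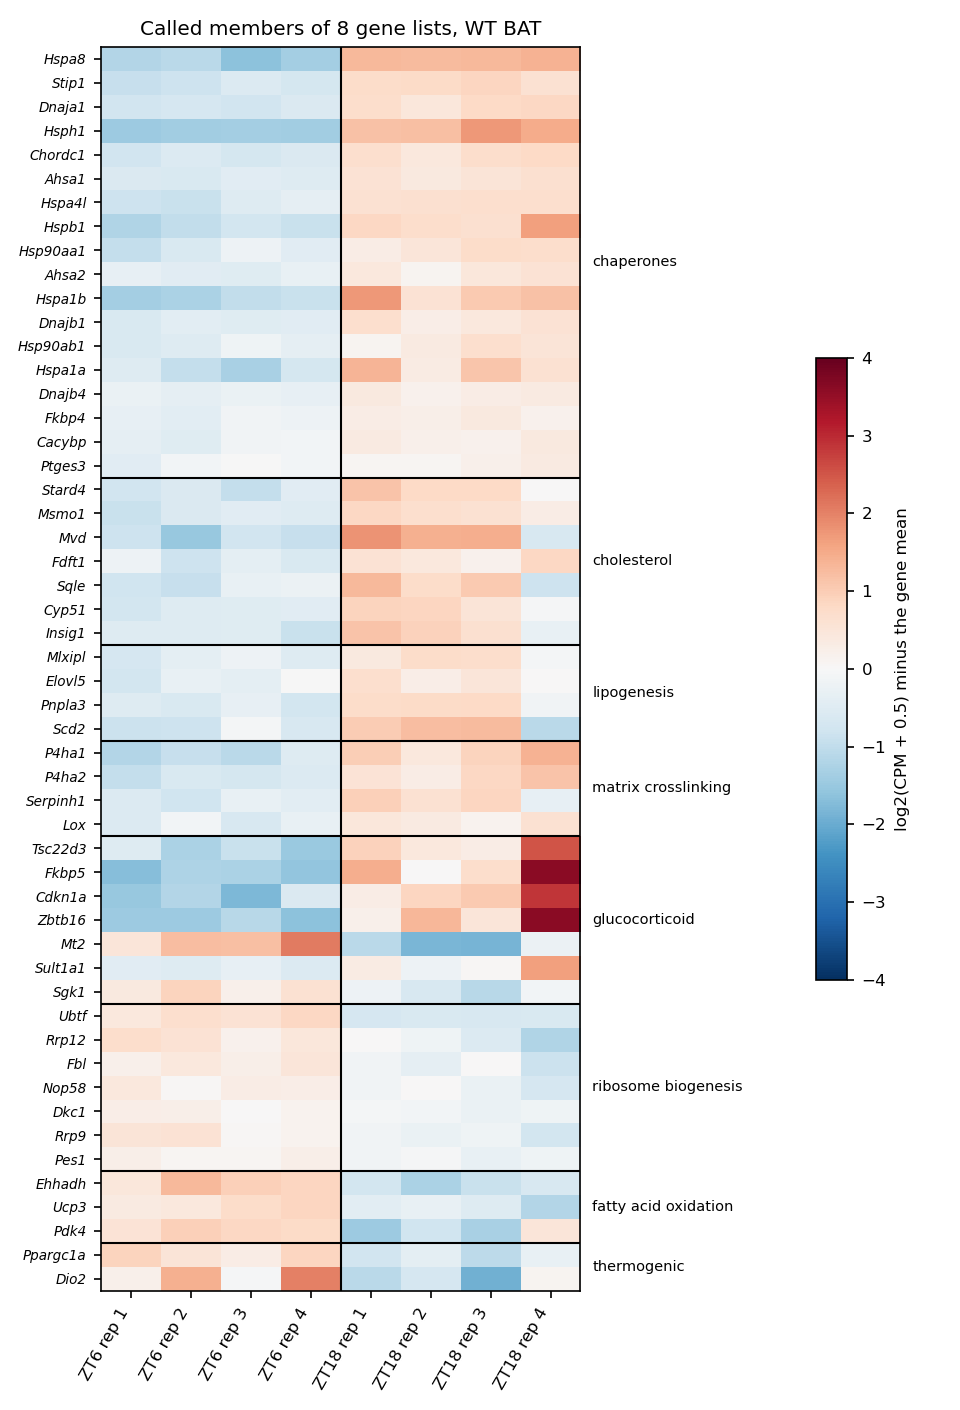
Rows are members of 8 gene lists that changed (FDR below 0.01) and columns are the 8 WT BAT samples, with the colour giving log2(CPM + 0.5) minus the mean of the gene over the 8 samples. The chaperones are high in all 4 ZT18 samples, while ZT18 replicate 4 differs from the other 3 in the glucocorticoid-responsive genes, where it is higher, and in several cholesterol and lipogenesis genes, where it is lower.

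Of 17 genes known to respond to glucocorticoids 5 rose at ZT18 (29.4%, against 4.69% of all genes) and 2 fell (11.8%, against 3.75%). The median log2 change of the list was 0.56, and the size of the rises rested in part on 1 sample. Fkbp5, a co-chaperone of the glucocorticoid receptor, read 2.84, 4.11, 4.06 and 3.14 CPM at ZT6 and 29.5, 10.6, 17.3 and 134 CPM at ZT18. Replicate 4 was more than 4 times as high as any other ZT18 sample, and the lowest ZT18 sample was still above all ZT6 samples (log2 change 3.77 ± 0.45 (SE), adjusted p = 5.38e-09). Zbtb16, which encodes a zinc finger transcription factor, was also highest in replicate 4, with 7.17, 7.23, 9.29 and 6.19 CPM at ZT6 and 23.8, 52.6, 29.1 and 255 CPM at ZT18 (log2 change 3.58 ± 0.45 (SE), adjusted p = 2.17e-08). Cdkn1a, the cell cycle inhibitor p21, had a log2 change of 2.90 ± 0.35 and Tsc22d3, the glucocorticoid-induced leucine zipper GILZ, one of 2.35 ± 0.27. Without replicate 4 these 4 log2 changes were 2.46, 2.24, 2.03 and 1.57, all still past the threshold. Sult1a1, a sulfotransferase, was called with replicate 4 (log2 change 1.11 ± 0.23) and not without it (0.54, adjusted p = 0.0528), and the count of the list became 4 higher and 4 lower. In a fit of the 8 samples alone none of the 5 rises was called. Mt2, a metallothionein that binds zinc, moved in the other direction with 12.7, 21.5, 21.2 and 39.3 CPM at ZT6 and 3.92, 2.15, 2.11 and 7.43 CPM at ZT18 (log2 change -2.64 ± 0.37 (SE), adjusted p = 3.76e-07), and Sgk1 fell as well (log2 change -1.02 ± 0.24), a call that was lost without ZT18 replicate 3 or ZT6 replicate 2. The receptor gene itself, Nr3c1, had a log2 change of 0.04 ± 0.08 (adjusted p = 0.844).

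Of 24 genes of cholesterol synthesis and uptake 8 rose at ZT18 and none fell (33.3% of the list, against 4.69% of all genes, median log2 change 0.44). Mvd, an enzyme of the mevalonate pathway, read 7.38, 4.39, 7.65 and 6.89 CPM at ZT6 and 48.1, 36.7, 37.95 and 8.48 CPM at ZT18. Its first 3 ZT18 samples were high and replicate 4 was close to the ZT6 samples (log2 change 2.29 ± 0.35 (SE), adjusted p = 1.90e-06). Msmo1, a sterol demethylase, rose by 1.24 ± 0.18 and Fdft1, squalene synthase, by 1.01 ± 0.16 on the log2 scale. Stard4, a cholesterol transfer protein, rose by 1.48 ± 0.18 and Insig1, which retains the SREBP complex in the endoplasmic reticulum, by 1.28 ± 0.31. Hmgcs1, an enzyme of the mevalonate pathway, had a log2 change of -0.31 ± 0.18, which did not pass the threshold. Without replicate 4 the count was 9.

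In de novo lipogenesis 4 of 15 genes rose (26.7%, against 4.69% of all genes) and none fell (median log2 change 0.42). Mlxipl, which encodes the glucose-responsive factor ChREBP, read 151, 185, 207 and 168 CPM at ZT6 and 316, 397, 395 and 228 CPM at ZT18 without overlap (log2 change 0.91 ± 0.20 (SE), adjusted p = 6.43e-04). Pnpla3 rose by 1.13 ± 0.26, the elongase Elovl5 by 0.72 ± 0.16 and the desaturase Scd2 by 1.42 ± 0.40. The abundant enzymes of the pathway varied widely between samples and were not called, with log2 changes of 0.25 ± 0.39 for fatty acid synthase (Fasn), 0.22 ± 0.32 for Acaca and 0.56 ± 0.44 for Acly. In fatty acid oxidation 3 of 24 genes fell (12.5%, against 3.75% of all genes) and none rose. These were Ehhadh, a peroxisomal oxidation enzyme, Ucp3, a mitochondrial carrier, and Pdk4, a kinase that inhibits pyruvate dehydrogenase. Ehhadh read 205, 373, 290.4 and 274 CPM at ZT6 and 89.7, 63.3, 81.9 and 95.9 CPM at ZT18 (log2 change -1.79 ± 0.28 (SE), adjusted p = 3.01e-06). Pdk4 read 1550.5, 2044, 1884 and 1813 CPM at ZT6 and 384, 618, 429.8 and 1473 CPM at ZT18, with replicate 4 near the ZT6 level (log2 change -1.33 ± 0.35 (SE), adjusted p = 0.00587). Its call was lost when any 1 of 6 other samples was left out. The mitochondrial enzymes of beta-oxidation were not called, and Acadm, Hadha and Cpt2 had log2 changes of 0.13 ± 0.14, 0.10 ± 0.15 and 0.25 ± 0.14.

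Of 20 genes of triglyceride synthesis 15 were not called, 2 rose (10%, against 4.69% of all genes) and 3 fell (15%, against 3.75%). The glycerol-3-phosphate acyltransferases Gpam (-0.64 ± 0.16), Gpat3 (-0.89 ± 0.20) and Gpat4 (-0.78 ± 0.17) fell, while the phosphatidate phosphatase Lpin1 rose from 713 ± 75.2 to 1572 ± 272 CPM (SD, n = 4 per group, log2 change 1.14 ± 0.17 (SE), adjusted p = 1.55e-06) and Pgs1, an enzyme of cardiolipin synthesis, rose by 0.39 ± 0.10. The calls of Gpam and Pgs1 were lost when any 1 of 4 samples was left out, and that of Gpat4 without ZT18 replicate 3. In the lipolysis list of 20 genes only G0s2, an inhibitor of adipose triglyceride lipase, was called (1.41 ± 0.30). It rose, and is 5% of the list, near the 4.69% of all genes. The call was lost without ZT18 replicate 4 (log2 change 0.74, adjusted p = 0.0639), where 3 other genes of the list were called lower.

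The largest change of an adipokine was that of Lep, the gene of leptin, which read 15.9, 12.9, 20.1 and 5.67 CPM at ZT6 and 169, 149, 137 and 20.5 CPM at ZT18. In 3 of the 4 ZT18 samples it was over 6 times as high as in any ZT6 sample, and in replicate 4 it was just above them (log2 change 3.11 ± 0.42 (SE), adjusted p = 1.04e-07). Lep is also a marker of white adipocytes, and of the other 5 such markers tested Agt was called higher (log2 change 2.93 ± 0.81 with ZT18 replicate 4 and 1.08 without it, where it was not called, adjusted p = 0.492). These 5 together summed to 4.54 to 14.3 CPM at ZT6 and 5.03 to 15.4 CPM at ZT18. Adipoq, the gene of adiponectin, had a log2 change of 0.11 ± 0.15, and Nrg4, a secreted factor of brown fat, fell by 0.59 ± 0.16 (adjusted p = 0.00614), a call that was lost when any 1 of 6 samples was left out, ZT18 replicate 4 among them.

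Of 32 genes of glucose handling 4 rose (12.5%, against 4.69% of all genes) and 2 fell (6.25%, against 3.75%). Ppp1r3b and Ppp1r3c target protein phosphatase to glycogen, and their level rose at ZT18. Ppp1r3b read 436, 493, 518 and 602 CPM at ZT6 and 2221, 2487, 2243 and 1371 CPM at ZT18 (log2 change 2.02 ± 0.37 (SE), adjusted p = 6.12e-05). Ppp1r3c rose from 148 ± 30.7 to 401 ± 29.9 CPM (SD, n = 4 per group), and Hk2, a hexokinase, by 1.16 ± 0.21 on the log2 scale. Slc2a4, the insulin-responsive transporter GLUT4, rose by 0.78 ± 0.16. Pygb, a glycogen phosphorylase, fell from 183 ± 11.7 to 118 ± 6.54 CPM and Pfkfb3, a regulator of glycolysis, had a log2 change of -1.12 ± 0.23. Among 20 genes that are either of insulin signalling or targets of FOXO transcription factors, 3 rose (15%, against 4.69% of all genes) and none fell. The 3 were Tbc1d4 (1.11 ± 0.11), which controls movement of GLUT4, Pik3r1 (1.32 ± 0.21), a regulatory subunit of PI3-kinase, and Sesn1 (0.70 ± 0.13), a sestrin. Without ZT18 replicate 4, 2 genes of this list fell as well. By edgeR and by DESeq2 none of the 19 genes of the tricarboxylic acid cycle was called, and 1 had an unadjusted p below 0.05.

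Nampt, the rate-limiting enzyme of NAD salvage and the gene deleted in FANKO mice, read 559, 479, 479 and 490.1 CPM at ZT6 and 883, 846, 763 and 1454 CPM at ZT18 in WT BAT. Its mean was about 2-fold higher at ZT18, and replicate 4 was the highest sample (log2 change 0.98 ± 0.13 (SE), adjusted p = 1.97e-07). Without that sample the log2 change was 0.73 (adjusted p = 1.20e-05). In FANKO BAT, Nampt measured 130.4 ± 19.00 CPM at ZT6 and 158 ± 19.7 CPM at ZT18 (SD, n = 4 per group). Of the 24 NAD genes tested 2 rose and 2 fell (8.33% each, against 4.69% and 3.75% of all genes). Besides Nampt, Nmnat1, which makes NAD in the nucleus, rose (0.61 ± 0.12). Nadsyn1, which makes NAD from the deamidated precursor, fell by 0.62 ± 0.12 and the deacylase gene Sirt6 fell by 0.60 ± 0.12 on the log2 scale. Sirt1 had a log2 change of 0.02 ± 0.12 (adjusted p = 0.97).

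In the thermogenic programme 2 of 20 genes fell (10% of the list, against 3.75% of all genes) and none rose (median log2 change -0.32). Ppargc1a, a coactivator of mitochondrial genes, read 119.6, 92.8, 78.8 and 117 CPM at ZT6 and 37.9, 48.7, 30.7 and 52.2 CPM at ZT18, with all ZT18 samples below all ZT6 samples (log2 change -1.27 ± 0.27 (SE), adjusted p = 5.65e-04). Dio2, which activates thyroid hormone, read 45.7, 106, 38.2 and 161 CPM at ZT6 and 18.5, 24.7, 10.1 and 42.4 CPM at ZT18, with a wide spread at ZT6 and an overlap of the groups (log2 change -1.88 ± 0.48 (SE), adjusted p = 0.00364), and the call was lost when any 1 of 5 samples was left out. Ucp1, the uncoupling protein of brown fat, had a log2 change of -0.55 ± 0.39, Cidea one of -0.05 ± 0.27 and Elovl3 one of 0.21 ± 0.34, none past the threshold. Without ZT18 replicate 4, 4 genes fell and 1 rose, and with DESeq2 1 gene fell and 1 rose. Of 17 receptors, cyclases and phosphodiesterases of the cAMP pathway none was called by edgeR and 2 by DESeq2, and 2 had an unadjusted p below 0.05 in edgeR. Without ZT18 replicate 4 edgeR called 2 of them higher and 1 lower, and without ZT6 replicate 2 it called 1 higher. Adrb3, the beta-3 adrenergic receptor, had a log2 change of 0.68 ± 0.20 (adjusted p = 0.0114).

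Ribosome biogenesis genes fell at ZT18, 7 of 20 (35.0%, against 3.75% of all genes), and none rose (median log2 change -0.20). Ubtf, the transcription factor of RNA polymerase I, read 88.4, 105, 97.5 and 116 CPM at ZT6 and 40.97, 42.8, 41.4 and 42.99 CPM at ZT18, and the samples of each time point lay close together (log2 change -1.27 ± 0.09 (SE), adjusted p = 1.18e-15). Rrp12, a ribosome export and processing factor, fell by 0.91 ± 0.17 and Fbl, fibrillarin, by 0.67 ± 0.15. Without ZT18 replicate 4 the count was 2, without ZT6 replicate 1 it was 3, and in a fit of the 8 samples alone it was 1. Among 20 genes of collagens and their crosslinking 4 rose (20%, against 4.69% of all genes) and none fell, all enzymes or chaperones of collagen and no collagen chain. P4ha1, a prolyl hydroxylase, rose from 22.2 ± 4.77 to 81.5 ± 21.8 CPM (SD, n = 4 per group, log2 change 1.88 ± 0.16 (SE), adjusted p = 3.53e-13), P4ha2 by 1.56 ± 0.18, the collagen chaperone Serpinh1 by 1.11 ± 0.19 and lysyl oxidase Lox by 0.79 ± 0.18. Of 24 proliferation genes only E2f2, an E2F transcription factor, rose (2.42 ± 0.26), which is 4.17% of the list, near the 4.69% of all genes. Of 15 genes of the integrated stress response only the sestrin gene Sesn2 was called (6.67%, against 3.75% of all genes). It fell from 26.6 ± 0.908 to 10.04 ± 1.77 CPM (log2 change -1.40 ± 0.19 (SE), adjusted p = 1.42e-07). Of 19 immediate early genes 2 rose (10.5%, against 4.69% of all genes) and 1 fell (5.26%, near the 3.75% of all genes). The AP-1 subunits Jun (1.21 ± 0.24) and Fosl2 (1.12 ± 0.19) rose and Junb (-0.82 ± 0.22) fell. The call of Junb was lost when any 1 of 5 samples was left out. Of the 13 messenger RNAs of the mitochondrial genome 8 were tested, while mt-Atp6, mt-Atp8, mt-Co2, mt-Co3 and mt-Nd4l matched no gene tested. Of the 8 none was called by edgeR or DESeq2, and 0 had an unadjusted p below 0.05.

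**Figure D4:**
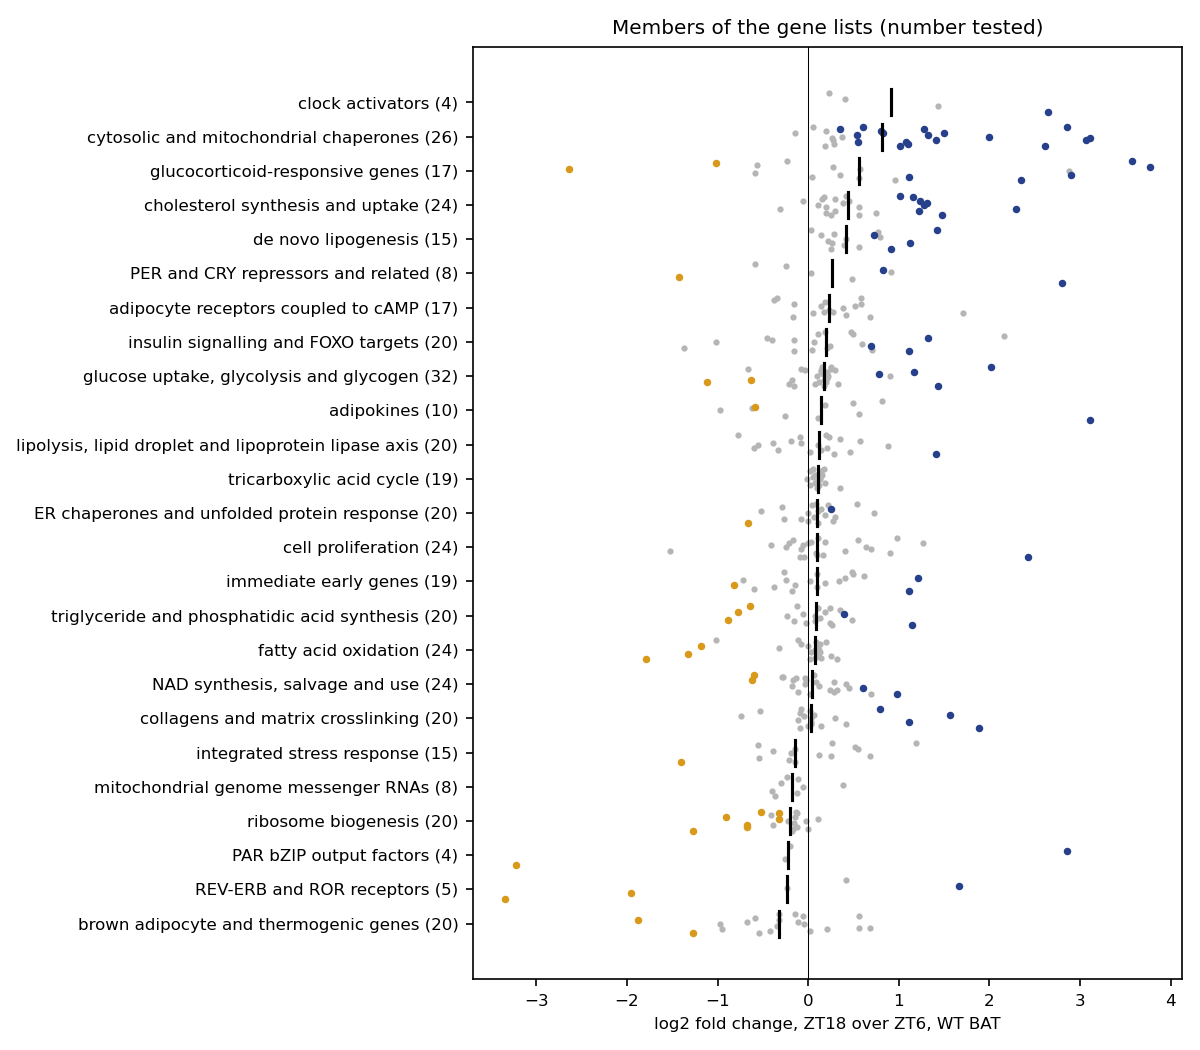
Each row is a gene list with the number of members tested, each point is a member at its log2 fold change (ZT18 over ZT6) on the x axis, and the black bar is the median. Blue points rose and orange points fell at an FDR below 0.01, grey points were not called, and the chaperones stand at a median of 0.81 with 18 of 26 called.

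Several of the strongest changes lay outside these lists. Cyp2b10, a cytochrome P450, had the largest fold, with 0.981, 0.567, 0.468 and 3.23 CPM at ZT6 and 5.51, 11.1, 6.67 and 545 CPM at ZT18. It was higher in every ZT18 sample, but 1 sample set the size of the change, and the log2 change of 6.74 ± 0.83 became 2.55 without it (adjusted p = 1.40e-08 and 2.99e-05). Lonrf3, which encodes a RING finger protein, rose in all 4 samples from 1.41 ± 0.429 to 13.4 ± 2.59 CPM (SD, n = 4 per group, log2 change 3.20 ± 0.30 (SE), adjusted p = 3.77e-12). Lsm11, a component of the U7 snRNP that processes histone transcripts, rose by 1.99 ± 0.15. Kit, a receptor tyrosine kinase, read 19.1, 11.3, 29.5 and 18.8 CPM at ZT6 and 139, 162, 161 and 77.8 CPM at ZT18 (log2 change 2.76 ± 0.23 (SE), adjusted p = 1.72e-13). Among the genes higher at ZT6, Sik1, a kinase induced by cAMP, read 33.5, 69.9, 59.5 and 101 CPM at ZT6 and 8.54, 11.6, 10.3 and 11.7 CPM at ZT18, and no ZT18 sample reached the lowest ZT6 sample (log2 change -2.64 ± 0.30 (SE), adjusted p = 2.70e-09). Ffar4, the receptor of long-chain fatty acids, and Dhrs9, a retinol dehydrogenase, had log2 changes of -2.36 ± 0.26 and -2.55 ± 0.33, with a wide spread at ZT6. Apold1, a gene of endothelial cells, changed by -2.18 ± 0.34. Smaller but very even decreases were those of Fbxl6, an F-box protein, from 31.7 ± 2.02 to 16.5 ± 0.231 CPM (log2 change -0.95 ± 0.08 (SE), adjusted p = 5.76e-14), and of Ttc39b (-1.36 ± 0.12).

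The ZT10 and ZT22 samples place these differences in the day. Of the 950 genes higher at ZT18, 704 had their highest mean of the 4 time points at ZT18, 239 at ZT22 and 7 at ZT10. Of the 759 genes higher at ZT6, 614 were highest at ZT6, 137 at ZT10 and 8 at ZT22. Hspa8 was near its ZT18 level at ZT22, with 966 ± 182 CPM, and at 295 ± 87.4 CPM at ZT10 (SD, n = 4 each). Arntl was higher at ZT22 than at ZT18, with 46.9 ± 9.16 CPM, and Dbp was highest at ZT10, with 55.5 ± 10.5 CPM. Fkbp5 had come down to 7.18 ± 0.857 CPM at ZT22.

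In FANKO BAT the same pair of time points gave 415 calls (2.05% of genes tested) and in WT eWAT 606 (2.99%). The test of the difference itself called 396 genes between WT BAT and FANKO BAT (1.96%) and 685 between WT BAT and WT eWAT (3.38%). Each of these tests uses the same 8 WT BAT samples, so the values are given side by side. Of the 396 genes, 335 lay further from 0 in WT BAT than in FANKO BAT, and 281 had changes of opposite sign. Of the 685 genes, 530 lay further from 0 in WT BAT than in WT eWAT, and 553 had changes of opposite sign. Genes that pass a test of the difference are picked for a gap between the 2 changes, which favours opposite signs and unequal sizes. The same shares over all genes were not counted, so these counts describe only the genes picked. The count of 396 depended on single samples, with 252 genes without WT ZT6 replicate 4, 224 without FANKO ZT18 replicate 1 and 244 without FANKO ZT6 replicate 1. It was 28 in a fit of the 16 WT and FANKO BAT samples at ZT6 and ZT18 alone. The 396 split into 209 with the more positive change in WT BAT and 187 with the more negative one, against 63 and 90 when samples were scaled by library size alone. The count of 685 was 341 with that scaling and 147 in a fit of its 16 samples alone. The difference for Cry1 had the smallest p, with a log2 change of 2.80 ± 0.15 in WT BAT and 0.83 ± 0.14 in FANKO BAT (adjusted p of the difference = 5.55e-09). In FANKO BAT the log2 changes of Arntl and Nfil3 were 0.14 ± 0.24 and 0.90 ± 0.26, neither called there (adjusted p of the difference = 5.54e-06 and 8.12e-04), and Nr1d1 and Dbp had log2 changes of -1.85 ± 0.25 and -1.61 ± 0.24 (adjusted p of the difference = 0.00665 and 0.00185). For Nr1d2, Cry2 and Ciart the difference did not pass the test (adjusted p = 0.0275, 0.0776 and 0.685). In WT eWAT the changes of Cry1 (2.37 ± 0.15) and Arntl (1.61 ± 0.24) did not differ from those in WT BAT at this threshold (adjusted p = 0.229 and 0.0541).

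The chaperones rose in all 3 settings. Of the 26, 19 were called higher at ZT18 in FANKO BAT and 13 in WT eWAT, against 18 in WT BAT. Over all 20249 genes tested, the counts in this direction were 237, 448 and 950. The rise was larger in WT BAT than in FANKO BAT for 5 of the 26 by the test of the difference (1.96% of all genes called). Hspa8 was among them (1.18 ± 0.16 in FANKO BAT, adjusted p = 3.36e-05). Against WT eWAT the rise was larger for 9 of the 26 (3.38% of all genes called), with 1.10 ± 0.16 there for Hspa8 (adjusted p = 3.67e-06). Of the 8 cholesterol genes that rose in WT BAT none was called in FANKO BAT, where 2.05% of all genes were called. The list had a median of 0.05 there. In WT eWAT 4 of the 24 genes of the list were called, all higher (2.99% of all genes called). The difference between WT BAT and FANKO BAT passed the test for 2 of the 24, Stard4 and Mvd (1.96% of all genes). For the others of the list it did not pass. Fkbp5, Zbtb16, Cdkn1a, Lep and Mt2 changed more in WT BAT than in either other setting, with the smallest adjusted p for Fkbp5 against FANKO BAT (1.17e-04) and for Zbtb16 against WT eWAT (9.03e-05). The WT BAT changes of Fkbp5, Zbtb16 and Cdkn1a went to 2.46, 2.24 and 2.03 without ZT18 replicate 4, and for these genes the difference was not tested without it. Ubtf had a log2 change of -0.32 ± 0.09 in FANKO BAT, which was not called there (adjusted p of the difference = 3.30e-06), and one of -0.05 ± 0.09 in WT eWAT (2.81e-09). Mgea5, which removes O-GlcNAc from proteins, rose by 0.82 ± 0.08 in WT BAT and had a log2 change of -0.22 ± 0.08 in FANKO BAT (2.86e-08). The splicing factor gene Srsf3 fell by 1.06 ± 0.09 in WT BAT and had a log2 change of 0.24 ± 0.09 in WT eWAT (1.53e-09).

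**Figure D5:**
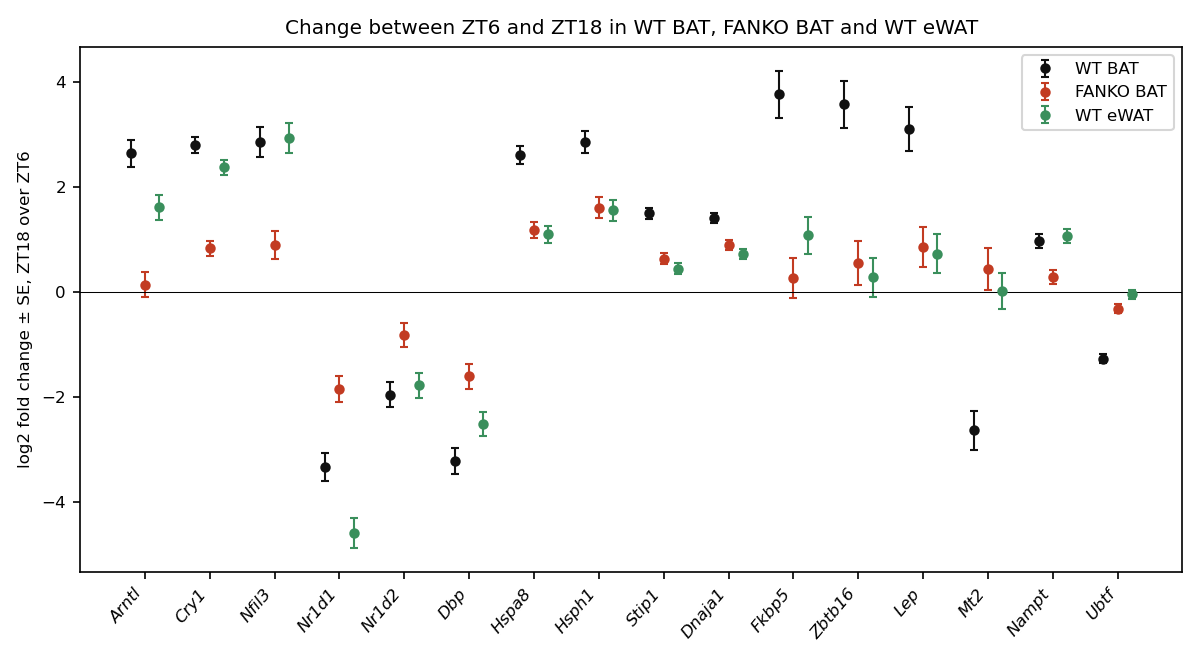
The y axis gives the log2 fold change (ZT18 over ZT6) ± SE for 16 named genes in WT BAT, FANKO BAT and WT eWAT, 4 samples per group. The points of Arntl, Cry1, Nfil3, Nr1d1 and Dbp are closer to 0 in FANKO BAT than in WT BAT, Hspa8 goes from 2.61 in WT BAT to 1.18 and 1.10 in the other settings, and the change of Fkbp5, Zbtb16, Lep and Mt2 stands out in WT BAT.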

How the data were processed

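RNA from BAT and eWAT was sequenced, and the 8 WT BAT samples at ZT6 and ZT18 were compared. The deposited values are raw counts of reads per gene, which the authors made from reads aligned with STAR 2.5.3a to the mouse genome GRCm38.p5 and counted by featureCounts 1.5.3 over GENCODE gene models, with FastQC 0.11.5 and MultiQC 1.2 for quality control. The strand and multimapping options of the counting are not given in the sources used here. Groups came from the sample labels. Gene symbols were found for 52403 of 52636 gene IDs. The white adipocyte symbols Asc2 and Wdnm1 matched no gene tested.

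Genes with low counts were removed (filterByExpr in edgeR, 16 groups, minimum count 10), which left 20249. Counts were scaled by TMM and fitted over all 64 samples with 1 term per group (edgeR 4.0.16, glmQLFit, R 4.3.3). ZT18 was tested against ZT6 in WT BAT, FANKO BAT and WT eWAT, and the differences between these changes were tested as interactions. The Benjamini-Hochberg FDR was taken across the 20249 genes, and genes below 0.01 were called. The SE is the absolute log2 change divided by the square root of F. CPM values use TMM-scaled library sizes, and log2 CPM a prior count of 2. Depth lay between 9585278 and 30544847 counts per sample, and counts below about 10 per sample limit the precision of low genes. The scripts were tested on simulated data.

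The comparison and the gene lists were chosen with earlier results of these data known. Named genes were the 8 largest changes in each direction among called genes that averaged log2 CPM 2 or more and whose groups did not overlap, the 5 smallest p in each direction, up to 3 called members per list and direction, the clock genes, Nampt and the 3 smallest p of each interaction, leaving out predicted gene models in the first, second and last of these. Other list members were named after their values were seen. Some genes of the lists are counted but not reported here. Alternatives were DESeq2 1.42.0, limma-voom (limma 3.58.1), other scalings, filters and sets of samples, a replicate block and leaving out each sample. Promoters were read from RefSeq (GRCm38.p6), found for 12770 of the genes tested.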

Additional observations from a re-analysis of the deposited data

Results flagged for a closer look

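Dixon's test for a sample far from the other 3 of its group was run on 194 groups of 4 samples. These were the named genes on the log2 scale and a few measures of the libraries, such as depth, without a log. It flagged 13 groups, all of named genes, a share near the 1 in 20 that chance gives. The groups share the same 8 samples, from which many of the genes were picked, so that rate is only a guide. Of the 13, 8 were ZT18 replicate 4. That sample was highest for Cyp2b10 (545 CPM), Nfil3 (76.2 CPM), Per1 (52.5 CPM) and Ciart (5.50 CPM), and lowest for Lep (20.5 CPM), Mvd (8.48 CPM), Pnpla3 (613 CPM) and Mbp (39.9 CPM). At ZT18, replicate 1 was highest for Dbp (8.26 CPM). At ZT6, replicate 1 was highest for Nampt (559 CPM) and lowest for Sirt6 (6.86 CPM), replicate 3 was lowest for Nfil3 (4.14 CPM) and replicate 4 highest for Ppp1r3c (194 CPM).

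The change from ZT6 to ZT18 differed between WT BAT and FANKO BAT for 396 genes and between WT BAT and WT eWAT for 685 genes by edgeR's test of the difference, at an adjusted p below 0.01. Given as the log2 change in WT BAT minus that in FANKO BAT, the difference was positive for Cry1 (1.97), Hspa8 (1.43), Stip1 (0.86), Lsm11 (1.03), Hsph1 (1.25), Kit (2.00), Lonrf3 (2.51), Arntl (2.51), Nfil3 (1.96), Mgea5 (1.04), Fkbp5 (3.51), Cdkn1a (2.69), Zbtb16 (3.04), Lep (2.25) and Rora (0.92). It was negative for Ubtf (-0.95), Dbp (-1.62), Nr1d1 (-1.50), Fbxl6 (-0.99), Ttc39b (-0.68), Srsf3 (-0.77), Ffar4 (-1.93), Dhrs9 (-2.29) and Mt2 (-3.08). Given as the log2 change in WT BAT minus that in WT eWAT, the difference was positive for Hspa8 (1.51), Stip1 (1.05), Dnaja1 (0.68), Lsm11 (1.54), Hsph1 (1.29), Kit (3.28), Mgea5 (0.91), Fkbp5 (2.69), Cdkn1a (2.16), Zbtb16 (3.30), Lep (2.39) and Arntl2 (0.78). It was negative for Ubtf (-1.22), Fbxl6 (-0.91), Ttc39b (-1.09), Srsf3 (-1.30), Ffar4 (-2.60), Sik1 (-2.80), Dhrs9 (-2.15) and Mt2 (-2.65). The largest of these differences, Fkbp5 against FANKO BAT, rests in part on ZT18 replicate 4, in which Fkbp5 stood at 134 CPM, and Zbtb16 (255 CPM) and Cdkn1a (143 CPM) were also highest in that sample.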

How the results depend on the processing

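In WT BAT the count of 1709 genes lay between 1369 and 1903 under DESeq2, limma-voom, other scalings and filters, robust dispersion and removal of the mitochondrial genome, was 1163 with only the WT BAT samples of all 4 time points, and was 552 with the 8 samples alone and 2937 at an FDR below 0.05. The difference between WT BAT and FANKO BAT (396 genes) gave 608 with DESeq2, 153 with library size alone, 247 without a filter on low counts, 197 with only the BAT samples, 28 with only the 16 samples and 1017 at an FDR below 0.05. The difference between WT BAT and WT eWAT (685 genes) gave 341 with library size alone, 147 with only the 16 samples and 1580 at an FDR below 0.05. The cause of these shifts was not tested. Leaving out 1 sample at a time gave 1282 to 1558 genes in WT BAT, 224 to 573 for the difference from FANKO BAT and 477 to 1019 for the difference from WT eWAT. With a replicate block the counts were 1801, 455 and 744. With the number taken as the mouse the eWAT count was 598, and 476 of these were among the 685. The deviations of same-numbered WT BAT samples at ZT6 and ZT18 correlated by 0.07, 0.01, 0.21 and 0.07, and the numbers were not taken as pairs. Those of WT BAT and WT eWAT correlated by 0.04, -0.01, 0.01 and 0.05 at ZT6 and by 0.17, 0.11, 0.06 and 0.31 at ZT18. The labels do not say whether these come from 1 mouse, and the main test of the difference used no such pairing. The replicate block changed no call of a named gene. Of 79 named genes with a call, 78 kept it with DESeq2, 74 with limma-voom, 79 with other size factors and 72 with library size alone. With the 8 samples alone 50 of 78 did, and the calls of Fkbp5, Zbtb16, Cdkn1a, Tsc22d3, Cyp2b10, Nampt and Cry2 were among those lost. Leaving out 1 of the 8 samples lost 6 to 11 calls, all among Agt, Canx, Cd14, Dio2, Dnajb9, Elovl5, Emcn, Fbl, G0s2, Gpam, Gpat4, Junb, Mbp, Nrg4, Pdk4, Pgs1 and Sgk1, while Npas2, Arntl2 and Per3 each gained a call without 1 sample. The sign of 2 genes without a call turned, those of Per1 and Rorb. Per1 was at -0.50 with limma-voom, -0.024 with library size alone and -0.095 with the replicate block, and leaving out 1 sample at a time gave -1.09 (ZT18 replicate 4) to 0.299, with -0.095 and -0.092 without ZT6 replicate 3 or 4. Rorb lay between -0.616 and 0.024 when 1 sample was left out, above 0 without ZT18 replicate 1.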
